A study of Mus musculus with 6 samples.

Results

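The G1 cyclins, their kinases and the inhibitors of those kinases were examined in the dorsal and lateral prostate of TRAMP mice given OSU-CG5 or vehicle. The 10 genes were Ccnd1, Ccnd2, Ccnd3, Ccne1, Ccne2, Cdk4, Cdk6, Cdkn1b, Cdkn2a and Cdkn2c, taken with every probe set that the array annotation assigns to one of these symbols alone. This gave 26 probe sets of 45037, and 10 of the 18193 genes that had such a probe set. TRAMP mice express the SV40 T antigens in prostate epithelium from a probasin promoter, and all animals here, controls included, were intact F1 males of C57BL/6 TRAMP by FvB. From 6 to 10 weeks of age, 3 mice received OSU-CG5, a compound known only by its code name here and reported elsewhere to mimic energy restriction, by gavage at 100 mg/kg per day, and 3 received vehicle. The final dose preceded killing by 2 to 4 h, and 1 Affymetrix array was run per mouse. For 2 treated samples the description field gives the compound a different number, and the source label, OSU-CG5 in all 3, was followed.

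As background, the D cyclins are induced by growth signals and activate Cdk4 and Cdk6, which phosphorylate the retinoblastoma protein and so release E2F factors. E2F factors induce cyclin E, which activates Cdk2 and carries cells into S phase. The INK4 inhibitors, encoded by Cdkn2a and Cdkn2c among others, bind Cdk4 and Cdk6, and the Cip/Kip inhibitor p27, encoded by Cdkn1b, acts mainly on cyclin E with Cdk2. The large T antigen of TRAMP mice binds and inactivates the retinoblastoma family and p53. Many of these proteins are controlled by degradation, which an array of transcripts does not measure.

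No transcript of the 10 genes was called, and the 95% intervals of the log2 differences reached from -1.05 to 1.36 over the 26 probe sets. Limma with Benjamini-Hochberg adjustment over all 45037 probe sets gave 0 of 26 member probe sets an adjusted p under 0.05, and 0 (0%) of all probe sets. The smallest member value was 0.280. At an unadjusted p under 0.05, 1 of 26 was lower with OSU-CG5 (3.85%), where 6.8% of all probe sets were lower, and 0 were higher, where 9.63% were. By another tool, an ordinary linear model without moderation, 0 of 26 had an unadjusted p under 0.05. The groups did not overlap for 2 of 26, both lower (7.69%), where 11.9% of all probe sets were lower without overlap and 23.6% did not overlap in either direction. Neither share over the 26 probe sets exceeded the background. By the brightest probe set of each gene, 2 of 10 were lower without overlap (20%), where 14.2% of all genes were. The median log2 difference, OSU-CG5 minus vehicle, was -0.09 over the 26 probe sets, with 18 below 0, and -0.06 over all probe sets. In bulk tissue, fewer cells of a type and less RNA per cell cannot be told apart.

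Individual arrays moved the member counts. Vehicle replicate 2 stood apart from the other arrays, with correlations across all probe sets of 0.966 to 0.981, while the other pairs ranged from 0.987 to 0.995. Its mean over 5 seminal vesicle secretory transcripts was 8.07, against 3.72 to 5.26 on the other 5 arrays. It was the highest of the 3 vehicle arrays for 15 of the 26 member probe sets and the lowest for 5. OSU-CG5 replicate 1 was the highest of its group for 15 and the lowest for 6. Without vehicle replicate 2, 0 member probe sets were lower and 1, of Cdkn1b, was higher at an unadjusted p under 0.05, where 5.55% of all probe sets were lower and 9.62% higher in the same fit. Without OSU-CG5 replicate 1 there were 6 of 26, all lower, from Ccnd1, Ccnd2 and Cdk4, where 5% of all probe sets were lower. Without vehicle replicate 3 there were 4, all lower, from Ccnd1, Ccne1, Cdkn2a and Cdkn2c, where 9.94% of all were lower. Without OSU-CG5 replicate 2 there were 0, where 4.5% were lower and 6.33% higher. Leaving out OSU-CG5 replicate 3 gave 1 lower, of Cdkn2a, beside 3.53% of all, and leaving out vehicle replicate 1 gave 1 lower, of Ccnd2, beside 5.83%. Array quality weights gave 4 lower and 1 higher, where 9.08% of all were lower and 11.5% higher, and repeated quantile normalization gave 5 lower, where 8.03% were. Probe sets of the same gene share a target, so these counts are not of independent genes. No member probe set had an adjusted p under 0.05 in any of these fits. Luminal markers of the labelled tissue were bright on every array, with 13.3 to 13.9 for Pbsn, the probasin gene.

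**Figure D1:**
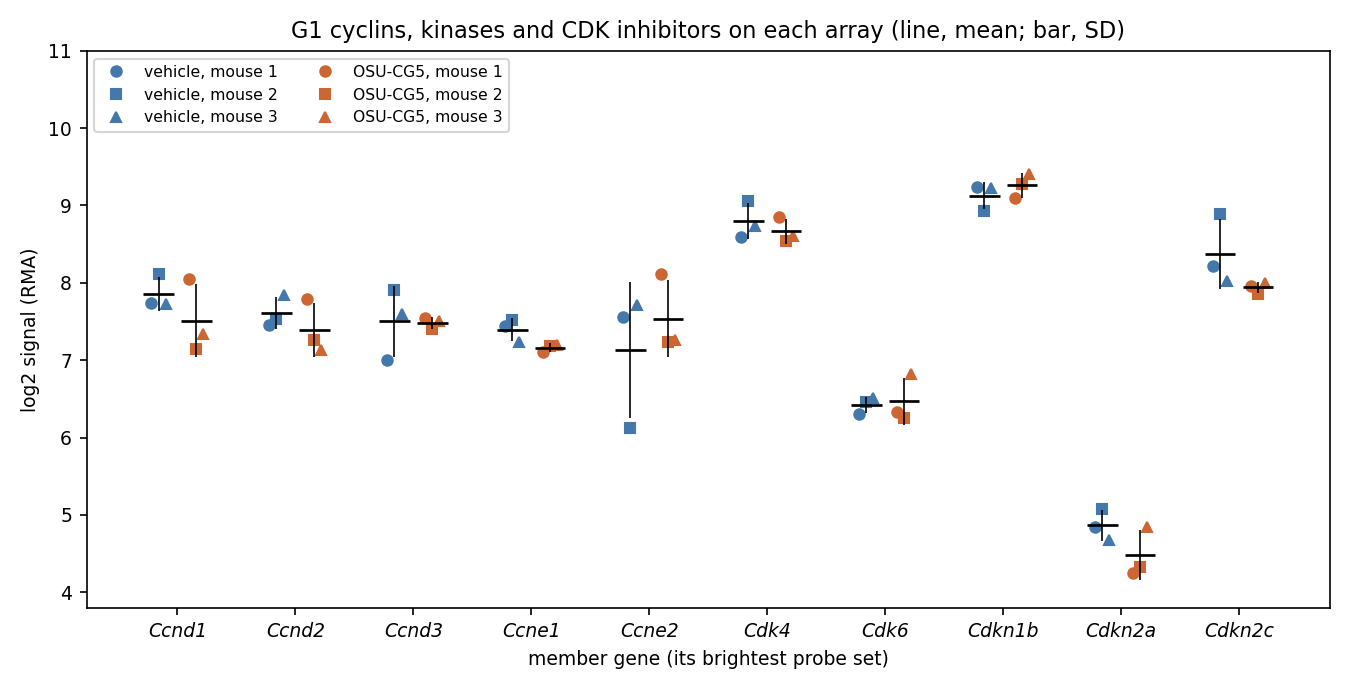
Log2 RMA signal on each array for the brightest probe set of each of the 10 genes. Points are single mice, blue for vehicle and orange for OSU-CG5, the horizontal line is the group mean and the bar its SD (n = 3). The groups overlap for 8 of the 10 genes. The exceptions, Ccne1 and Cdkn2c, are lower with OSU-CG5 (20%), where 14.2% of all genes were lower without overlap by their brightest probe set. Levels of different probe sets are not comparable with each other.

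By their brightest probe sets all 3 D cyclins lay below 0, where 65.7% of all genes did, and none was called. Ccnd3 lay at only -0.02. Ccnd1 encodes cyclin D1. Its brightest probe set, 1448698_at, read 7.74, 8.11 and 7.72 (log2) in vehicle replicates 1, 2 and 3, and 8.05, 7.15 and 7.34 with OSU-CG5. OSU-CG5 replicate 1 lay with the vehicle arrays, so the groups overlapped. The log2 difference was -0.35 (SE 0.23, 95% interval -0.88 to 0.19, n = 3 per group; limma adjusted p = 0.482), a ratio of 0.787. The other probe sets of Ccnd1 differed by -0.25 (SE 0.21) for 1417420_at and -0.42 (SE 0.20) for 1417419_at. All 3 lay below 0, and none had an interval that left out 0. For 1417420_at vehicle replicate 2 was the highest array, at 8.09, and without it the difference was -0.01. Without vehicle replicate 2 the brightest probe set differed by -0.22 and 1417419_at by -0.22. Without OSU-CG5 replicate 1 the brightest differed by -0.61 (limma adjusted p = 0.327).

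Ccnd2, which encodes cyclin D2, had 7 probe sets. The brightest, 1455956_x_at, read 7.45, 7.54 and 7.85 in vehicle and 7.79, 7.26 and 7.13 with OSU-CG5, a log2 difference of -0.22 (SE 0.19, 95% interval -0.66 to 0.22). It was -0.42 without OSU-CG5 replicate 1, -0.15 without replicate 2 and -0.09 without replicate 3, and -0.10 without vehicle replicate 3. The next, 1434745_at, read 7.67, 7.77 and 7.54 in vehicle and 7.87, 6.87 and 6.93 with OSU-CG5. It differed by -0.43 (SE 0.25, 95% interval -1.01 to 0.14; limma adjusted p = 0.416), and by -0.76 to -0.26 with 1 array left out. In both probe sets, OSU-CG5 replicates 2 and 3 lay below every vehicle array and replicate 1 did not. The probe sets 1416122_at and 1448229_s_at differed by -0.38 (SE 0.20) and -0.15 (SE 0.14). The only member probe set with an unadjusted p under 0.05 belonged to Ccnd2. That probe set, 1430127_a_at, read 5.95, 6.56 and 6.14 in vehicle and 6.11, 5.43 and 5.47 with OSU-CG5, and differed by -0.55 (SE 0.22, 95% interval -1.05 to -0.04; limma adjusted p = 0.280). Without vehicle replicate 2 its unadjusted p was 0.0923 by limma over the 5 remaining arrays. Without OSU-CG5 replicate 1, 4 of the 7 Ccnd2 probe sets were lower at an unadjusted p under 0.05. In that fit 5% of all probe sets were lower, and these 4 share a target. There 1434745_at differed by -0.76 (limma adjusted p = 0.313). The dimmest, 1416123_at and 1416124_at, had means of 3.50 and 2.82 and differed by 0.13 and -0.04.

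Of 6 fibroblast and matrix markers, 5 were highest among the treated mice in OSU-CG5 replicate 1, as Ccnd2 1455956_x_at and 1434745_at were. The collagen gene Col1a1 was lowest there, at 6.85 against 7.07 and 7.08. This order was not limited to these markers. OSU-CG5 replicate 1 also had the highest treated mean for luminal, basal, seminal vesicle, smooth muscle, macrophage and endothelial markers. For lymphocyte, skeletal muscle and neuroendocrine markers it did not. It was the highest of its group for 15 of the 26 member probe sets, as given above. The proteoglycan gene Lum read 8.90 in OSU-CG5 replicate 1 against 7.67 and 7.37 in replicates 2 and 3, and the collagen gene Col3a1 read 10.5 against 9.46 and 9.25. In vehicle, Lum read 8.58, 7.78 and 8.35, and Col3a1 read 10.3, 10.5 and 10.1. Over the 6 markers the array mean was 9.73 in OSU-CG5 replicate 1, 9.17 and 9.04 in the other treated mice and 9.45 to 9.64 in vehicle. Of these 6, 5 lay below 0 with OSU-CG5, and 1 was lower at an unadjusted p under 0.05. Of 6 macrophage markers all 6 lay below 0 and 3 were lower at that p, with array means of 6.61 to 6.90 with OSU-CG5 and 7.01 to 7.57 in vehicle, and all 5 endothelial markers lay below 0 and 4 were lower at that p, with 5.08 to 5.19 and 5.32 to 5.61. By the brightest probe set 8.43% of all genes were lower at that p, and 65.7% lay below 0. The endothelial genes Pecam1, Plvap and Cdh5 and the macrophage gene Cd68 were dim. Their means of 3.87, 4.87, 5.12 and 4.55 were below the median of every array. Leaving out vehicle replicate 2, an alternative chosen after seeing the data, the lower counts were 0 fibroblast, 2 macrophage and 2 endothelial markers. In that fit 5.55% of all probe sets were lower. Without OSU-CG5 replicate 1 the lower counts were 3 fibroblast, 4 macrophage and 4 endothelial markers, where 5% of all probe sets were lower. The part of these cells in the D cyclin values was not tested.

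**Figure D2:**
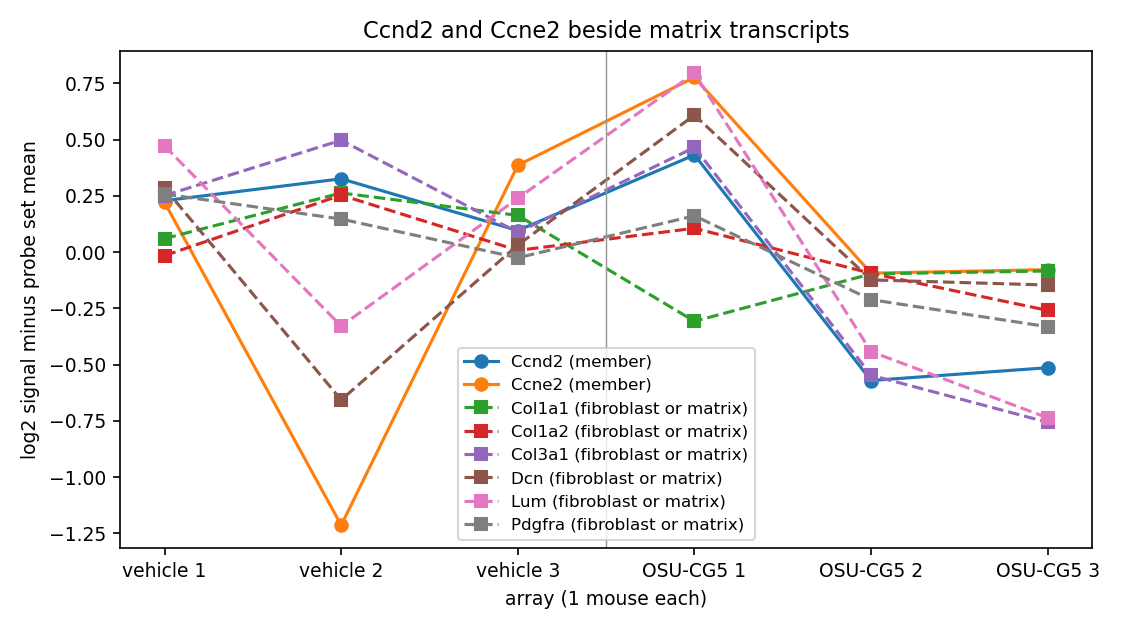
Log2 signal on each array minus the mean of the probe set, for the second-brightest Ccnd2 probe set (1434745_at), Ccne2 and all 6 fibroblast and matrix markers. OSU-CG5 replicate 1 is the highest treated array in every profile but Col1a1, and vehicle replicate 2 is the lowest of all 6 arrays for Ccne2 and Dcn and the highest for Col1a1, Col1a2 and Col3a1.

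Ccnd3, which encodes cyclin D3, gave differences on both sides of 0. Its brightest probe set, 1415907_at, read 7.01, 7.91 and 7.60 in vehicle and 7.55, 7.40 and 7.51 with OSU-CG5. The treated arrays lay inside the vehicle range, and the log2 difference was -0.02 (SE 0.21, 95% interval -0.51 to 0.47; limma adjusted p = 0.971). The vehicle SD was 0.46 and the OSU-CG5 SD 0.08 (n = 3 each). The other probe sets differed by 0.21 (SE 0.15) for 1438805_at and -0.01 (SE 0.20) for 1444323_at. The brightest differed by 0.18 without vehicle replicate 2 and by 0.03 without vehicle replicate 3, both of the opposite sign. Its sign also reversed without OSU-CG5 replicate 2, so 3 of the fits with 1 array left out reversed it.

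The E cyclins lay on opposite sides of 0. Ccne1 encodes cyclin E1, and its brightest probe set, 1441910_x_at, read 7.44, 7.52 and 7.23 in vehicle and 7.10, 7.19 and 7.20 with OSU-CG5. All treated arrays were below all vehicle arrays, the nearest being 7.20 and 7.23. The log2 difference was -0.23 (SE 0.12, 95% interval -0.51 to 0.05; limma adjusted p = 0.377). The _x in its identifier marks a probe set whose probes can also bind other transcripts. The brightest probe sets of Ccnd2, 1455956_x_at, and Cdk4, 1422441_x_at, carry the same mark and the same limit. The other Ccne1 probe set, 1416492_at, read 5.94, 6.13 and 5.98 in vehicle and 5.93, 5.91 and 6.09 with OSU-CG5, and differed by -0.04 (SE 0.12). Its groups overlapped.

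Ccne2, which encodes cyclin E2, varied most among the members with a mean of at least log2 6, with an SD of 0.68 over the 6 arrays. It read 7.55, 6.12 and 7.72 in vehicle and 8.11, 7.24 and 7.26 with OSU-CG5. Vehicle replicate 2 was the lowest array and OSU-CG5 replicate 1 the highest. The log2 difference was 0.40 (SE 0.42, 95% interval -0.55 to 1.36; limma adjusted p = 0.644). Leaving out vehicle replicate 2 gave -0.10, the opposite sign. The genes with the most similar profile over the 6 arrays, each centred on its own mean, were Tmem161b, Fgl1 and Osgepl1, with root-mean-square differences of 0.0845, 0.0871 and 0.0999 (log2). These came from 9618 candidate genes with a mean of at least log2 6. Each was also lowest in vehicle replicate 2, at 4.83, 9.70 and 6.95, and highest in OSU-CG5 replicate 1. Of the 6 fibroblast and matrix markers, 1, the proteoglycan gene Dcn, had these extremes, 11.5 in vehicle replicate 2 and 12.7 in OSU-CG5 replicate 1. The collagen genes Col1a1, Col1a2 and Col3a1 were instead highest in vehicle replicate 2, at 7.43, 10.7 and 10.5, and seminal vesicle transcripts were high in vehicle replicate 2 as given above. Their part in the Ccne2 values was not tested.

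**Figure D3:**
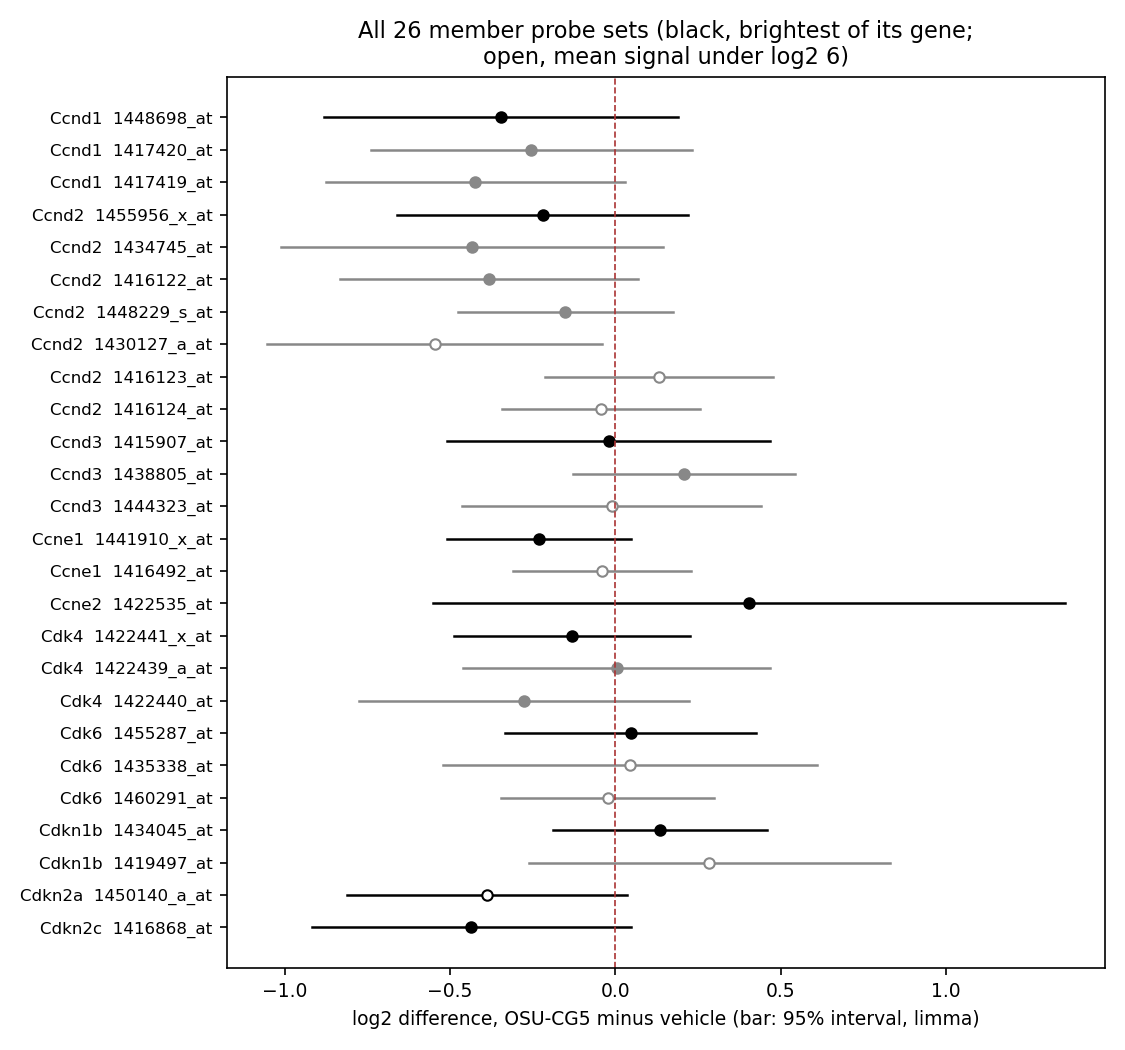
Log2 difference, OSU-CG5 minus vehicle, for all 26 probe sets, with the 95% interval from limma (n = 3 per group). Black marks the brightest probe set of a gene and open circles a mean under log2 6. Only the interval of Ccnd2 1430127_a_at leaves out 0, and the widest belongs to Ccne2.

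The kinases showed no call in either direction. Cdk4 is the main partner of the D cyclins in many epithelia. Its brightest probe set, 1422441_x_at, read 8.59, 9.05 and 8.74 in vehicle and 8.85, 8.54 and 8.60 with OSU-CG5, a log2 difference of -0.13 (SE 0.16, 95% interval -0.49 to 0.22; limma adjusted p = 0.690). Vehicle replicate 2 and OSU-CG5 replicate 1 were the highest arrays of their groups for all 3 probe sets of Cdk4. The others differed by 0.00 (SE 0.20) for 1422439_a_at and -0.27 (SE 0.22) for 1422440_at. Without vehicle replicate 2 the brightest differed by -0.002.

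Cdk6, the other partner of the D cyclins, read 6.30, 6.46 and 6.51 in vehicle and 6.33, 6.26 and 6.82 with OSU-CG5 on its brightest probe set, 1455287_at. OSU-CG5 replicate 3 was the highest array, and the groups overlapped. The log2 difference was 0.05 (SE 0.17, 95% interval -0.33 to 0.43; limma adjusted p = 0.906), which spans ratios of 0.794 to 1.34. The dimmer probe sets 1435338_at and 1460291_at, with means of 4.41 and 3.89, differed by 0.04 and -0.02.

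Of the inhibitors, Cdkn1b lay above 0 and both INK4 genes below, and none was called. Cdkn1b encodes p27, and its bright probe set, 1434045_at, read 9.23, 8.92 and 9.22 in vehicle and 9.09, 9.28 and 9.41 with OSU-CG5. Its log2 difference was 0.13 (SE 0.14, 95% interval -0.19 to 0.46; limma adjusted p = 0.650). The groups overlapped, with vehicle replicate 2 the lowest array. It became 0.03 when vehicle replicate 2 was left out, 0.06 when OSU-CG5 replicate 3 was, and 0.22 when OSU-CG5 replicate 1 was. The dim probe set of Cdkn1b, 1419497_at, read 4.80, 5.47 and 4.52 in vehicle and 5.05, 5.13 and 5.47 with OSU-CG5. Here vehicle replicate 2 and OSU-CG5 replicate 3 were the highest arrays, and the difference was 0.28 (SE 0.24) with it and 0.55 (SE 0.16; limma adjusted p = 0.148) without it.

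Cdkn2c encodes the INK4 inhibitor p18 and has 1 probe set, 1416868_at. It read 8.22, 8.88 and 8.02 in vehicle and 7.97, 7.86 and 7.999 with OSU-CG5. The groups did not overlap, the nearest arrays being 7.999 and 8.022. The log2 difference was -0.44 (SE 0.21, 95% interval -0.92 to 0.05; limma adjusted p = 0.343), a ratio of 0.739. Without vehicle replicate 2, the highest array, it was -0.18, and without vehicle replicate 3 it was -0.61 (limma adjusted p = 0.145).

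Cdkn2a encodes p16Ink4a and p19Arf, which start from separate first exons and share later exons in different reading frames. Its single probe set, 1450140_a_at, carries an identifier given to probe sets that match several transcripts of a gene, so its signal was not divided between these products. It read 4.85, 5.08 and 4.67 in vehicle and 4.25, 4.33 and 4.85 with OSU-CG5. OSU-CG5 replicates 1 and 2 lay below every vehicle array, and replicate 3 did not. The log2 difference was -0.39 (SE 0.18, 95% interval -0.81 to 0.03; limma adjusted p = 0.337), and its mean of 4.67 was below the median of every array. Without OSU-CG5 replicate 3 it was -0.57 (limma adjusted p = 0.435).

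The sequences before the 2 annotated starts of Cdkn2a are shown because the probe set does not separate their transcripts, and the starts lie 12427 bases apart. Each is the 250 bases before a start from RefSeq, GRCm38.p6, on the minus strand, written 5′ to 3′ in lower case. Capitals mark a match to 1 of the 4 spellings of the E2F consensus that were searched on both strands, TTTCCCGC, TTTCGCGC, TTTGCCGC and TTTGGCGC.
Cdkn2a, upstream start, chr4:89294620-89294869: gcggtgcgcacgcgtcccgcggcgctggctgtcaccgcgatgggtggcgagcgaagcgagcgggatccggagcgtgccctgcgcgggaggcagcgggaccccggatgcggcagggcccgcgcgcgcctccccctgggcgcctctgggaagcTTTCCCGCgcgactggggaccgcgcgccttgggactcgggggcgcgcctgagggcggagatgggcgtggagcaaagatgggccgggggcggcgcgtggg
Cdkn2a, downstream start, chr4:89282193-89282442: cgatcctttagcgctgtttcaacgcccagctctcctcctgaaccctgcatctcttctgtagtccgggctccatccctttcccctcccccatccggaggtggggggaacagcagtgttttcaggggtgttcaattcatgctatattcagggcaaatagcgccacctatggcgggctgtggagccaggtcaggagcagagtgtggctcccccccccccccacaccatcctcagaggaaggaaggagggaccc
The upstream window, before the start of the Arf first exon, holds TTTCCCGC on the gene's strand with its first base 99 bases before the start. Windows of 7 member genes were in the table, 10 in all, and this was the only one with a match. Of 32851 windows of the same length over all genes, 611 (1.86%) held a match. These matches are letters in a window and were not measured as binding.

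Probe sets of the same gene were compared within each array. The 7 genes with more than 1 probe set gave 16 pairs of the brightest with another one, and the log2 differences had the same sign in 12. The difference within an array varied less over the 6 arrays than the brightest probe set itself in 9 of 16 pairs. For Cdk4 it had an SD of 0.12 and 0.18, against 0.20 for the brightest, so the 3 probe sets followed each other over the mice. For Ccnd2 1416122_at that SD was 0.10 against 0.28. In Ccnd3 the SDs were 0.43 and 0.53 against 0.29, and in Cdkn1b 0.43 against 0.17, so these probe sets followed different courses. The groups did not overlap in 1 pair, Ccnd2 1455956_x_at minus 1416122_at, which was 0.16 larger with OSU-CG5 (exact two-sided permutation p = 0.1, the smallest that 3 against 3 arrays allow; adjusted p over the 16 pairs 0.8). A design of this size cannot reach 0.05 for a single pair.

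**Figure D4:**
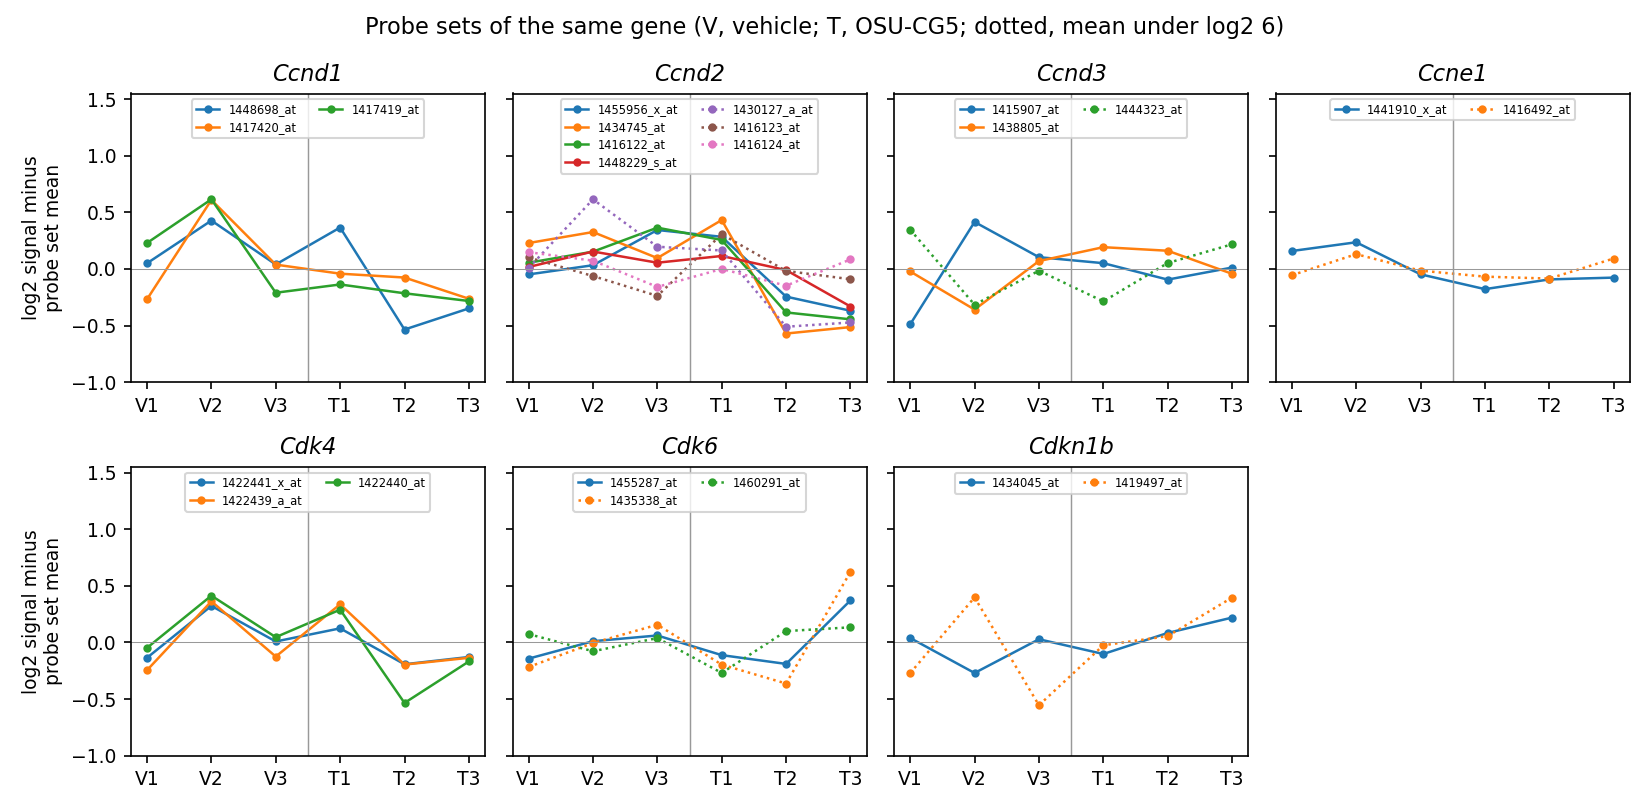
Log2 signal on each array minus the mean of the probe set, for the 7 genes with more than 1 probe set. V marks vehicle and T OSU-CG5, and dotted lines mark a mean under log2 6. The 3 Cdk4 profiles run together, with V2 and T1 high, while those of Ccnd3 and Cdkn1b cross.

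Other genes of the G1 pathway were taken from lists chosen with earlier results of these data known, each gene by its brightest probe set. None of the 57 measured had a limma adjusted p under 0.05. At an unadjusted p under 0.05, 10 were higher with OSU-CG5 (17.5%), where 5.4% of all genes were higher, and 1 was lower (1.75%), where 8.43% were. The groups did not overlap for 13 that were higher (22.8%), where 8.1% of all genes were. These backgrounds cover all genes, dim ones included. When only signals averaging log2 6 or above were fitted, 14% were higher and 5.06% lower at that p, counted per probe set. Whether the listed genes exceeded genes of similar signal was not tested. Of the 10 higher, 5 were among 12 genes of DNA synthesis and proliferation, which had a median log2 difference of 0.30 beside -0.09 over all genes. The member genes, by their brightest probe sets, had a median of -0.18, with 7 of 10 below 0, where 65.7% of all genes were.

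The 5 remaining CDK inhibitors had none with an unadjusted p under 0.05. Cdkn1a, the p53-induced inhibitor p21, read 6.35, 6.47 and 6.75 in vehicle and 6.32, 6.56 and 6.71 with OSU-CG5, a difference of 0.01 (SE 0.16, 95% interval -0.35 to 0.36). Cdkn2d, Cdkn1c and Cdkn2b differed by -0.13, -0.11 and -0.04. Of the 13 further cyclins, kinases and activators measured, 1 was higher at an unadjusted p under 0.05 (7.69%), where 5.4% of all genes were. The higher gene was Cdk7, the kinase that activates other CDKs, at 0.30 (SE 0.12; limma adjusted p = 0.281), with 4 of its 5 probe sets above 0. The fifth, at -0.22, was lower without overlap of the groups. Cdk2, the partner of cyclin E, differed by -0.06 (SE 0.18), Cks1b, a cofactor in p27 turnover, by -0.40 (SE 0.22) and Cdc25c by 0.21 (SE 0.16).

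Among 14 genes of G1 cyclin and p27 turnover, Skp2 and Btrc were higher (14.3%) at an unadjusted p under 0.05 and none was lower. The higher share was 5.4% over all genes, and 14% per probe set for signals averaging log2 6 or above. Skp2 encodes the F-box protein that directs p27 to degradation. It read 7.43, 7.34 and 7.53 in vehicle and 7.99, 7.98 and 8.11 with OSU-CG5, a log2 difference of 0.59 (SE 0.11, 95% interval 0.33 to 0.85; limma adjusted p = 0.142). All 6 probe sets of Skp2 were higher without overlap of the groups, by 0.19 to 0.75. Its brightest probe set passed with array quality weights (limma adjusted p = 0.0375) and was at 0.0801 without vehicle replicate 2.

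Btrc encodes beta-TrCP, an F-box protein that has been linked to cyclin D1 degradation. Its brightest probe set, 1443142_at, read 5.70, 5.16 and 6.03 in vehicle and 6.43, 6.73 and 6.45 with OSU-CG5, which is 0.91 higher on the log2 scale (SE 0.22; limma adjusted p = 0.159). It passed without vehicle replicate 3 (adjusted p = 0.0425) and with array weights (0.0417). Its other 4 probe sets differed by -0.23 to 0.08, and none had an unadjusted p under 0.05. Rbx1, a subunit of the same ligases, differed by 0.29 (SE 0.16).

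Of 13 pocket protein and E2F genes, 2 were higher (15.4%) and 1 lower (7.69%) at an unadjusted p under 0.05. Over all genes 5.4% were higher and 8.43% lower. For signals averaging log2 6 or above, the shares per probe set were 14% and 5.06%, near those of the list. Rbl1, which encodes the pocket protein p107, read 7.94, 7.90 and 8.33 in vehicle and 8.65, 8.91 and 8.84 with OSU-CG5, a difference of 0.74 (SE 0.15; limma adjusted p = 0.145). It passed without vehicle replicate 3 (adjusted p = 0.0357) and with array weights (0.0331). Its 4 probe sets ranged from -0.29 to 0.76. The repressive factor E2f7 differed by 0.41 (SE 0.13), and E2f5 by -0.47 (SE 0.16) on its brightest probe set and 0.08 and 0.02 on the others.

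Of the 12 proliferation genes, 5 were higher (41.7%) and 0 lower at an unadjusted p under 0.05, and 9 lay above 0. The same higher shares, 5.4% over all genes and 14% per probe set at log2 6 or above, apply here. Mki67, a marker of cycling cells, read 10.2, 9.89 and 10.4 in vehicle and 10.5, 10.8 and 10.8 with OSU-CG5, a difference of 0.49 (SE 0.17; limma adjusted p = 0.228). Top2a, a topoisomerase gene of dividing cells, differed by 0.73 (SE 0.12; limma adjusted p = 0.125) on its brightest probe set and by 0.85 and -0.04 on the others, the ribonucleotide reductase gene Rrm1 by 0.48 (SE 0.13) and the thymidylate synthase gene Tyms by 0.91 (SE 0.26), the last on 1 of 4 probe sets, the others at -0.15 to -0.06. Top2a passed with array weights (limma adjusted p = 0.0265) and without vehicle replicate 2 (0.0416), and Tyms without vehicle replicate 3 (0.0357). Whether the members differed from these genes in their response was not tested.

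**Figure D5:**
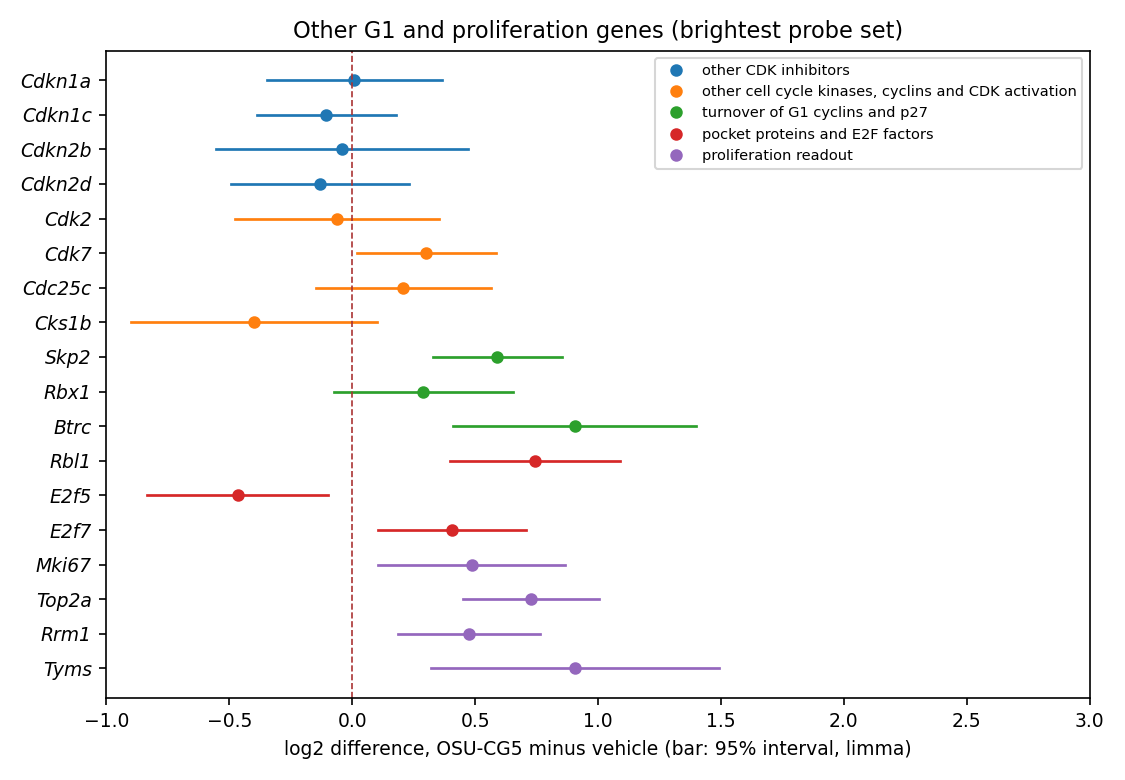
Log2 difference, OSU-CG5 minus vehicle, with the 95% interval from limma (n = 3 per group), for the brightest probe set of 18 other G1 and proliferation genes, coloured by list. The intervals of Cdk7, Skp2, Btrc, Rbl1, E2f7, Mki67, Top2a, Rrm1 and Tyms lie above 0, that of E2f5 lies below 0 and the other 8 span 0, and none of the 18 passed the adjusted threshold.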

How the data were processed

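The deposited values were log2 expression values per probe set, 1 array per mouse, made with RMA by the authors, per the submitters' processing notes. As background, RMA corrects background, quantile-normalizes arrays together and summarises probes, so a broad shift is partly removed. No label or header names the software version. Biotin-labelled cRNA came from 2 ug of total RNA, per the labels' protocols.

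The 64 Affymetrix controls were removed, leaving 45037 probe sets, of which 34945 had 1 symbol in the platform annotation, 932 several and 9160 none here. Array medians were 5.30 to 5.38. Groups came from the source labels. The number of arrays, 3 per group, limits precision. Differences were tested with lmFit and eBayes of limma (limma 3.58.1, R 4.3.3) on all probe sets without a filter, with Benjamini-Hochberg adjustment at 0.05. SE is the moderated standard error. SD is over the 3 arrays of a group, or over all 6 arrays for the Ccne2 spread and the pairs of probe sets. The fit was tested on simulated data. Pairs of probe sets were compared by exact permutation. Named genes were all member probe sets, up to 3 genes of each pathway list by smallest p, Cdk2, Cdkn1a, Btrc, Skp2 and Mki67, and the 3 genes closest to the most variable member. The members and lists were chosen with earlier results of these data known. Markers of luminal, basal, seminal vesicle, fibroblast, smooth muscle, macrophage, lymphocyte, endothelial, skeletal muscle and neuroendocrine cells were averaged by array. Alternatives were filters at log2 6 and 4, median centring, repeated quantile normalization, cyclic loess, trend and robust prior, no moderation, array weights, 1 probe set per gene, single-symbol probe sets only, and each array left out.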

Additional observations from a re-analysis of the deposited data

How the results depend on the processing

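No member probe set had a limma adjusted p under 0.05 in any of the 16 alternatives, and the smallest was 0.0827. Over all probe sets, 822 passed with array quality weights, 0 to 885 with 1 array left out and 0 elsewhere. Of 26 member probe sets, 1 had an unadjusted p under 0.05, against 5 with repeated quantile normalization or array weights, 0 with median centring or no moderation, and 0 to 6 with 1 array left out. There were also 0 of the 17 with a mean of at least log2 6 and 0 of the 10 with 1 probe set per gene, both of which leave out that probe set. Over all probe sets in the same fits, 14% were higher and 5.06% lower at a mean of at least log2 6. The shares were 5.69% and 8.94% with 1 probe set per gene, and 10% and 5.87% with median centring. Pairs of probe sets without overlap numbered 1 of 16, against 3 with repeated quantile normalization, 2 without _x and _s probe sets and 2 to 4 with 1 array left out. Groups of fewer arrays separate more often without any difference, so the counts with 1 array left out cannot be compared with the main count. Leaving out _x and _s probe sets also changed which pairs were formed. The sign held throughout for 17 member probe sets. Signs reversed with repeated quantile normalization for Ccnd2 1416124_at (0.012), Cdk4 1422439_a_at (-0.080), Cdk6 1455287_at (-0.016) and 1460291_at (0.041), and Cdkn1a (-0.057). They reversed with cyclic loess for Ccnd2 1416124_at (0.018), Ccnd3 1444323_at (0.060), Ccne1 1416492_at (0.014), Cdk4 1422439_a_at (-0.0011), Cdk6 1460291_at (0.066) and Cdkn2b (0.020). They reversed with array weights for Ccnd3 1415907_at (0.16), Ccne1 1416492_at (0.014), Ccne2 (-0.030), Cdk6 1460291_at (0.017), Cdkn2b (0.093) and Cdkn2d (0.0072). With 1 array left out, the ranges that crossed 0 were -0.13 to 0.022 for Ccnd2 1416124_at, -0.27 to 0.18 for Ccnd3 1415907_at, -0.17 to 0.16 for 1444323_at, -0.10 to 0.015 for Ccne1 1416492_at, -0.10 to 0.70 for Ccne2 and -0.16 to 0.19 for Cdk4 1422439_a_at. They were -0.26 to 0.24 for Cdk6 1435338_at, -0.13 to 0.15 for 1455287_at, -0.10 to 0.11 for 1460291_at, -0.18 to 0.12 for Cdk2, -0.082 to 0.12 for Cdkn1a, -0.29 to 0.18 for Cdkn2b and -0.27 to 0.026 for Cdkn2d. The cause of these changes was not tested. No paired analysis was possible because the replicate numbers were given in accession order and pair no mice.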

Other observations

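The marker lists not described above gave these median log2 differences, OSU-CG5 minus vehicle: 6 luminal markers -0.01, 4 basal markers -0.10, 5 seminal vesicle markers -1.49, 5 smooth muscle markers -0.17, 5 lymphocyte markers -0.34, 5 skeletal muscle markers -0.73 and 4 neuroendocrine markers -0.06. No marker had a limma adjusted p under 0.05. At an unadjusted p under 0.05 there were 0, 1, 0, 2, 3, 3 and 0 lower markers in these lists, in the same order, and 0 higher ones, where 8.43% of all genes were lower and 5.4% higher. Without vehicle replicate 2, an alternative chosen after seeing the data, the seminal vesicle median was -0.35 and the skeletal muscle median -0.42.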
